A study of Mus musculus with 12 samples.

Results

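The 9 genes described here are 2 Wnt ligands (Wnt5a, Wnt11) and 7 modulators of Wnt signalling (Sfrp1, Sfrp2, Frzb, Dact1, Dact3, Dixdc1, Axin2), out of 49492 genes in the deposited count table. They were taken by name as Wnt ligands and modulators that do not lie on chromosome 6, and measured values entered the choice: Dact1 was included because it was higher after TAC in wild type, and Dixdc1 because it was lower after TAC in the knockout. The values of these 2 genes in those comparisons, and in every other comparison that shares libraries with them, are therefore given as descriptions with no test. All 9 passed the filter on low counts, with 15 to 317 reads per gene and library.

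The data were RNA-seq libraries of polyadenylated RNA from mouse left ventricle, in 4 groups of 3: wild type without and with TAC (WT_NS, WT_TAC) and Alox5 knockout without and with TAC (Alox5ko_NS, Alox5ko_TAC). TAC, transverse aortic constriction, narrows the aorta and loads the left ventricle with pressure; the labels use NS for the treatment of the other libraries and do not spell it out. Alox5 encodes arachidonate 5-lipoxygenase, the enzyme that starts leukotriene synthesis. The series' design text speaks of a cardiac deficiency, while the labels give the genotype only as WT or Alox5ko and name no Cre driver, allele, strain, sex, age or time after surgery. The labels do not say that the libraries of a group came from separate animals, so p-values measure the spread between these libraries, which may be technical.

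Alox5 itself stood at 9.56 to 13.9 CPM (read counts scaled to the library total) in the 6 wild type libraries and at 0.934 to 1.46 CPM in the 6 knockout libraries, so every library matched its genotype label and 21 to 39 reads remained in each knockout library. Library totals ran from 20889431 to 27311196 reads. The 8 cardiomyocyte markers examined together took 141000 to 178000 CPM in every library, which fits ventricular muscle. Of 6 markers of epicardium and mesothelium, 5 had at most 5 reads in any library, while Wt1 had 30 to 136. Atrial markers were uneven, with 0 to 276 reads of Myl7, 36 to 1629 of Myl4, 0 to 27 of Sln and 0 to 3 of Bmp10 per library. Nppa, on the same list, had 3334 to 26489 reads. The part of these markers in the results was not tested.

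Wnt ligands are secreted, lipid-modified proteins that bind Frizzled receptors. In the canonical branch they spare beta-catenin from a destruction complex built on axin, and beta-catenin then acts with TCF/LEF factors on target genes; other branches act through planar polarity proteins or calcium. Wnt5a and Wnt11 are mostly known as ligands of these other branches. Sfrp1, Sfrp2 and Frzb bind Wnt proteins outside the cell, the Dact proteins and Dixdc1 act on Dishevelled inside it, and Axin2 is both a scaffold of the destruction complex and a widely used target gene of beta-catenin. In the adult heart the pathway is kept low, and it is known to be engaged in fibroblasts and cardiomyocytes under injury and load.

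Promoter sequences are shown for 4 of the genes, since a TCF/LEF motif is the letter pattern through which beta-catenin target genes are usually read. The windows are the 250 bases before a RefSeq transcript start (GRCm38.p6), written along the strand of the gene. They are Dact1 (chr12:71309634-71309883, plus strand) and Dixdc1 (chr9:50737736-50737985, minus strand), shown because these 2 genes were chosen for their response to TAC, Axin2 (chr11:108920099-108920348, plus strand), shown as the target gene, and Wnt11 (chr7:98834862-98835111, plus strand), shown because it holds the motif; capitals mark it.
Dact1: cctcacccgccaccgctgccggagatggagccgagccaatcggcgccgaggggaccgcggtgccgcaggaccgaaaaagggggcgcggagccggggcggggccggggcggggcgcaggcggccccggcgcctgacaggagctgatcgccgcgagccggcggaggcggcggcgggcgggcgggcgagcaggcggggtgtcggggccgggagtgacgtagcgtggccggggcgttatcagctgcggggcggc
Dixdc1: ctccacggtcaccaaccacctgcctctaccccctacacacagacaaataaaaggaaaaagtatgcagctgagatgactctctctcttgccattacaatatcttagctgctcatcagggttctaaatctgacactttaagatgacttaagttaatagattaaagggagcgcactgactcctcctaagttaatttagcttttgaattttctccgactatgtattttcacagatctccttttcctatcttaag
Axin2: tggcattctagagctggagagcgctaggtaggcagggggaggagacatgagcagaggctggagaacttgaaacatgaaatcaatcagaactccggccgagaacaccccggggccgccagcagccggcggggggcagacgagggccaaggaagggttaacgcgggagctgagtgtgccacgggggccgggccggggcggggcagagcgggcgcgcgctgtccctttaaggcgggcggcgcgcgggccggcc
Wnt11: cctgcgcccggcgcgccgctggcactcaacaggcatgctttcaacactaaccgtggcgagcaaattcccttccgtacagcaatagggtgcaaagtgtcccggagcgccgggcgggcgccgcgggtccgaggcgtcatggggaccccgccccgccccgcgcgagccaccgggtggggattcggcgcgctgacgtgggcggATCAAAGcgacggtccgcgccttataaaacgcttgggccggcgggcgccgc
The motif was searched on both strands as CTTTG followed by 2 further bases, each of them A or T. RefSeq windows were at hand for 7 of the 9 genes, and 1 of their 9 windows held it, the Wnt11 window above, with the motif on the opposite strand, printed there as ATCAAAG, beginning 51 bases before the start; of 32851 windows of the same length over all genes, 14.8% held the motif. The Dact1 window was 80.4% G and C with 41 CpG pairs, the Axin2 window 69.2% with 24, the Wnt11 window 70.8% with 37, and the Dixdc1 window shown 40% with 3, against medians of 52.4% and 6 over all windows. The Dixdc1 window shown precedes a start inside the annotated span of the gene, and a second RefSeq window of Dixdc1, farther inside the span (chr9:50727985-50728234), was 70% G and C with 28 CpG pairs.

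In the annotation of the count table (GRCm38/mm10) the ligand genes are Wnt5a at chr14:28504750-28527447 and Wnt11 at chr7:98835112-98855195, both on the plus strand. The genes of the secreted antagonists are Sfrp1 at chr8:23411502-23449632 and Sfrp2 at chr3:83766321-83774316, on the plus strand, and Frzb at chr2:80411970-80447625 on the minus strand. The intracellular modulators are Dact1 at chr12:71309884-71320107 and Dact3 at chr7:16875317-16887462, on the plus strand, Dixdc1 at chr9:50662752-50739517 on the minus strand, and Axin2 at chr11:108920349-108950783 on the plus strand. Values below sum the exons of each gene.

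Per unit of transcript length (RPKM, reads scaled to gene length and library total), Dact3 and Sfrp1 led. Dact3 averaged 3.54 RPKM over the 12 libraries (2.94 to 4.74) and Sfrp1 2.46 RPKM (1.89 to 3.13), at the 62.2 and 53.6 percentile of the tested genes. The next was Dact1 with a mean of 0.818 RPKM (0.35 to 1.62), and no library of it reached the lowest Sfrp1 library. Wnt5a followed at a mean of 0.729 RPKM, Sfrp2 at 0.683, Axin2 at 0.431, Dixdc1 at 0.415, Frzb at 0.391 and Wnt11 at 0.354. From Dact1 downward the ranges of neighbours overlapped, so their order is not settled by these libraries, and these 7 genes lay between the 14.1 and the 28.6 percentile.

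**Figure D1:**
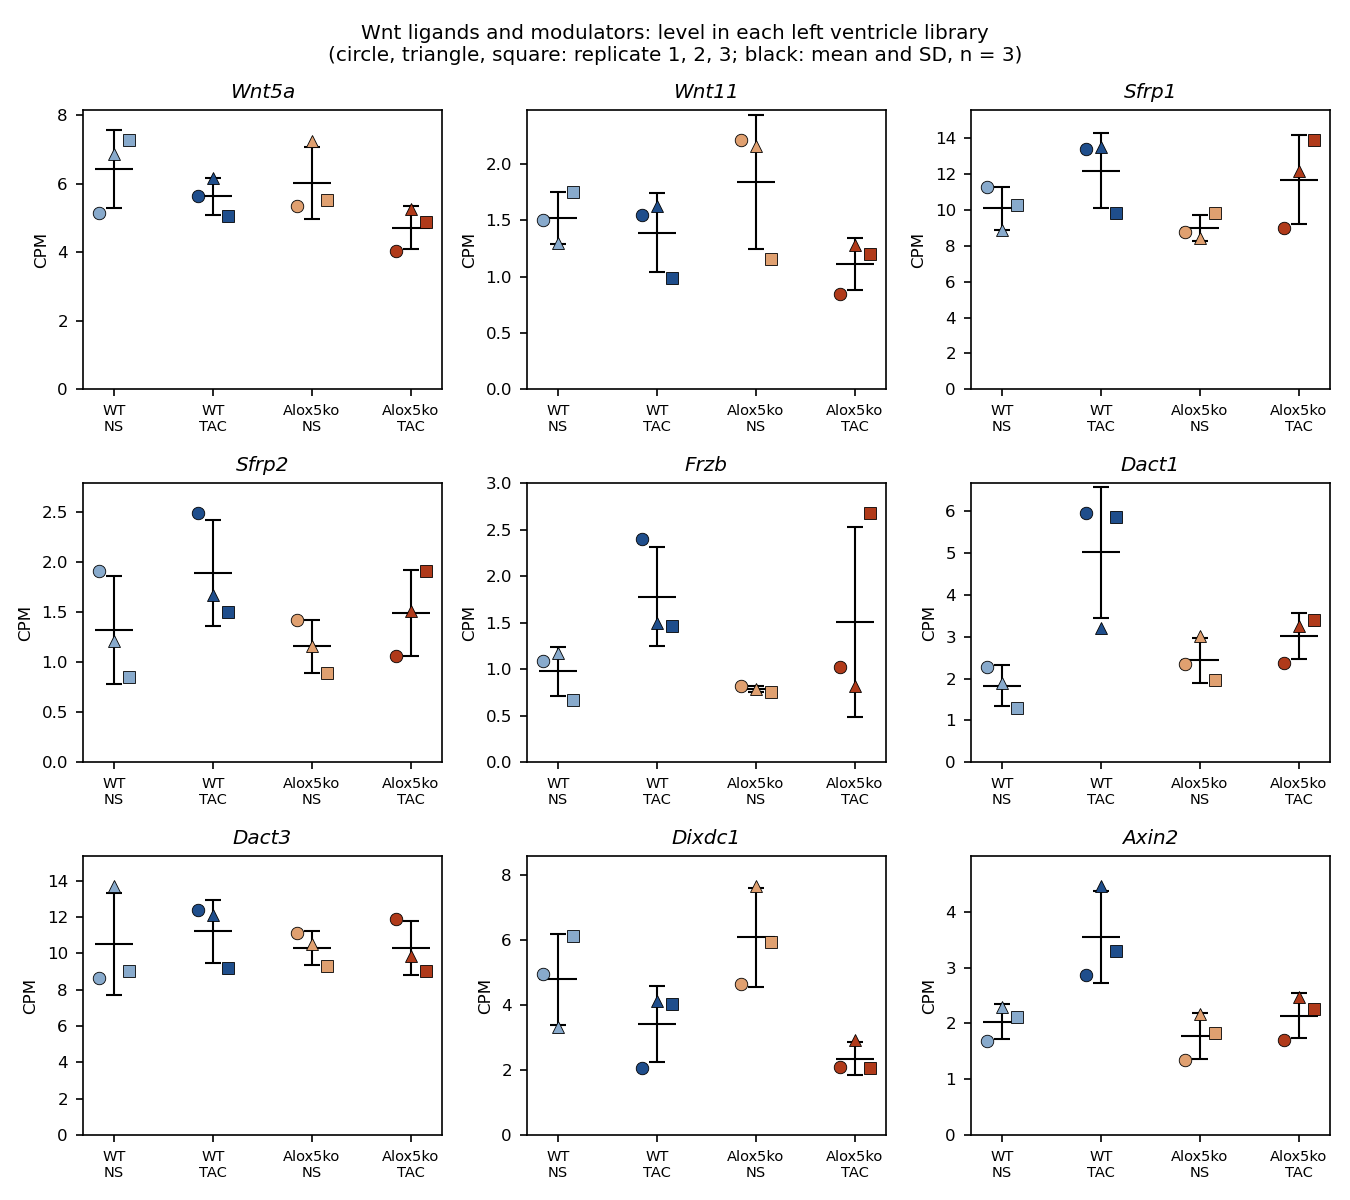
Level of each of the 9 Wnt genes in CPM (vertical axes, starting at 0 and scaled to each gene) in the 3 libraries of each group (points), with the group mean as a bar and the SD as a line. The 3 Dact1 libraries of WT_TAC sit at 3.22 to 5.96 CPM, above the WT_NS libraries, and the 3 Dixdc1 libraries of Alox5ko_TAC at 2.06 to 2.93 CPM, below the Alox5ko_NS libraries.

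The ligands were not higher after TAC in either genotype, and neither changed by the test. Wnt5a stood at 5.14, 6.87 and 7.27 CPM in WT_NS, 5.64, 6.18 and 5.07 in WT_TAC, 5.35, 7.24 and 5.52 in Alox5ko_NS and 4.03, 5.26 and 4.88 in Alox5ko_TAC. The wild type groups overlapped, while all 3 knockout TAC libraries lay below the 3 knockout libraries without TAC. The log2 fold change with TAC was -0.19 in wild type (edgeR adjusted p = 0.717) and -0.36 ± 0.165 (SE) in the knockout (edgeR adjusted p = 0.324).

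Wnt11 stood at 1.50, 1.30 and 1.75 CPM in WT_NS, 1.55, 1.63 and 0.987 in WT_TAC, 2.21, 2.16 and 1.16 in Alox5ko_NS and 0.849, 1.28 and 1.20 in Alox5ko_TAC. The groups overlapped in both genotypes, in the knockout because of 1 library without TAC at 1.16 CPM. In the knockout the log2 difference was -0.75 ± 0.283 (SE; 95% interval -1.34 to -0.16, edgeR adjusted p = 0.218), and in wild type it was -0.12 (edgeR adjusted p = 0.926). Of 13 other Wnt ligand genes outside chromosome 6, 2 had enough reads to be tested, Wnt9a and Wnt2b. Wnt9a, with a median of 0.726 RPKM, was at the level of Wnt5a, whereas Wnt2b had 2 to 13 reads per library. Wnt9a was 0.38 log2 units higher with TAC in wild type (edgeR adjusted p = 0.439) and 0.18 higher in the knockout (edgeR adjusted p = 0.706), with no overlap of the groups in either genotype and no call. No read of Wnt1, Wnt3, Wnt3a, Wnt8a or Wnt10a was counted in any of the 12 libraries. Taken alone, a library with a count of 0 allows up to 3 reads, or 0.144 CPM in the shallowest one, and 12 such libraries together allow less.

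The secreted antagonists all had positive log2 differences with TAC in both genotypes, and none passed the threshold. Frzb, a decoy that resembles the ligand-binding part of Frizzled, was the one with the largest differences. It stood at 1.09, 1.17 and 0.673 CPM in WT_NS, 2.40, 1.50 and 1.46 in WT_TAC, 0.822, 0.783 and 0.756 in Alox5ko_NS and 1.02, 0.823 and 2.68 in Alox5ko_TAC. TAC libraries lay above those without TAC in both genotypes with no overlap, but in the knockout the second library was barely higher (0.823 against 0.822 CPM) and the third far higher. The log2 difference was 0.86 ± 0.375 (SE; edgeR adjusted p = 0.359) in wild type and 0.92 ± 0.388 (edgeR adjusted p = 0.275) in the knockout, and the latter was 0.23 without the third knockout TAC library. Averaged over the genotypes it was 0.89 ± 0.27 (edgeR adjusted p = 0.0639).

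Sfrp1 was the most abundant antagonist of the 3. It stood at 11.3, 8.86 and 10.3 CPM in WT_NS, 13.4, 13.5 and 9.82 in WT_TAC, 8.75, 8.43 and 9.83 in Alox5ko_NS and 9.0, 12.2 and 13.9 in Alox5ko_TAC. In each genotype 1 TAC library lay within the range without TAC. The log2 difference was 0.27 in wild type (edgeR adjusted p = 0.522), 0.38 in the knockout (edgeR adjusted p = 0.259) and 0.32 ± 0.109 (SE) averaged over both (edgeR adjusted p = 0.097).

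Sfrp2, known as a product of cardiac fibroblasts, stood at 1.91, 1.21 and 0.853 CPM in WT_NS, 2.49, 1.67 and 1.50 in WT_TAC, 1.42, 1.16 and 0.89 in Alox5ko_NS and 1.06, 1.51 and 1.91 in Alox5ko_TAC. The groups overlapped in both genotypes. The log2 difference was 0.51 in wild type (edgeR adjusted p = 0.553) and 0.35 in the knockout (edgeR adjusted p = 0.666).

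Fibroblast markers differed between the same libraries. The summed level of 10 markers of activated fibroblasts (Postn, Cilp, Cthrc1, Ltbp2, Acta2, Comp, Thbs4, Fap, Meox1 and Tnc) was 198, 191 and 155 CPM in WT_NS, 482, 195 and 227 in WT_TAC, 115, 90.2 and 109 in Alox5ko_NS and 253, 125 and 306 in Alox5ko_TAC. The first wild type TAC library and the third knockout TAC library had the highest sums of their groups, and they are also the libraries with the highest Frzb and Sfrp2 of their groups. Of the 9 tested markers, 8 had a positive log2 difference with TAC in each genotype, with medians of 1.36 and 1.71. None was called within a genotype, and 3 were called higher averaged over the genotypes (2.90% of all genes). Cthrc1 had 0 to 6 reads, and Acta2, which smooth muscle also expresses, made up 19.0% to 64.7% of the sum. A broader list of 10 fibroblast markers summed to 938 to 1130 CPM in wild type without TAC and 891 to 1500 CPM with it, and in the knockout to 779 to 881 CPM without and 879 to 1060 CPM with TAC. In this list 1 marker was called higher after TAC in each genotype (0.476% of all genes in wild type, 0.733% in the knockout) and 2 averaged over the genotypes (2.90%). Markers of other cell types moved as well. A list of 6 markers of valve interstitial and chondrogenic cells summed to 22.1 to 41.5 CPM in WT_NS and 48.8 to 171 in WT_TAC, and to 21.5 to 29.9 CPM in Alox5ko_NS and 39.9 to 69.9 in Alox5ko_TAC, with the highest sums in the first wild type and the third knockout TAC library. Its 4 tested markers were all positive with TAC in both genotypes. None was called within a genotype and 1 was called higher averaged over both (2.90% of all genes). Prg4 had the most reads of this list, 409 to 2963 per library, against 9 to 383 for Fmod, the next, while Acan had 0 to 25 and Col2a1 0 to 11 reads. A list of 8 markers of smooth muscle and pericytes summed to 2810 to 2830 CPM without and 3320 to 4040 CPM with TAC in wild type, and to 2510 to 2750 CPM and 2940 to 3810 CPM in the knockout. Most of this sum came from Des, with 40107 to 74682 reads per library, against 6591 to 9088 for Rgs5, the next. With TAC 3 and 6 of 8 markers were positive, with median log2 differences of -0.03 in wild type and 0.21 in the knockout. Of the 8 markers, 1 was called higher in wild type (0.476% of all genes), 0 in the knockout (0.733%) and 1 averaged over the genotypes (2.90%). The part of these cell types in the antagonists' values was not tested, and in bulk tissue a change in the number of cells of a type and a change in RNA per cell cannot be told apart.

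**Figure D2:**
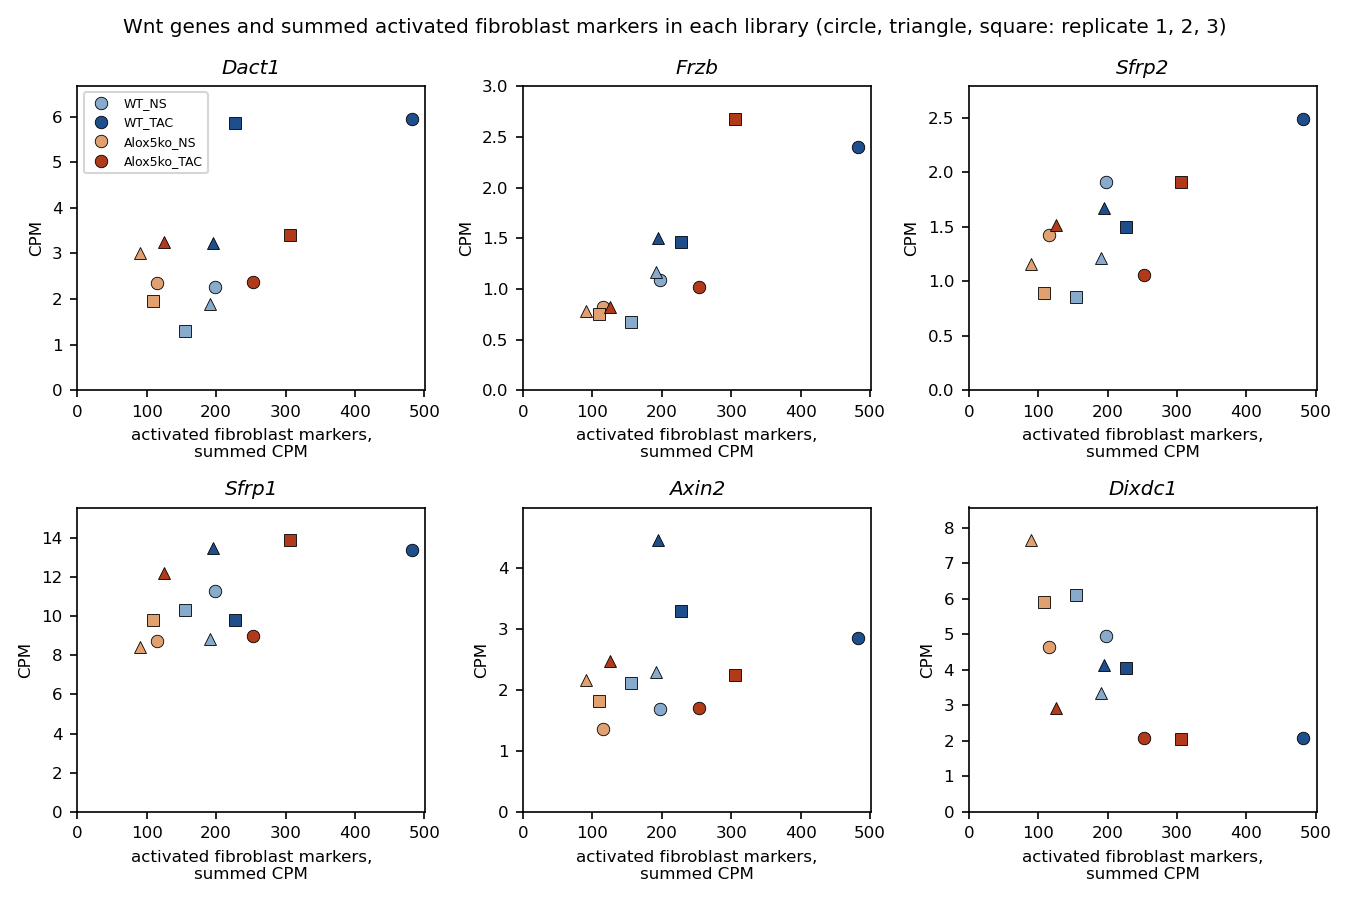
Level of 6 of the genes (vertical axes, CPM) against the summed level of 10 markers of activated fibroblasts (horizontal axes, CPM) in the 12 libraries, coloured by group, with 1 point per library. The WT_TAC library at 482 CPM of markers has 2.40 CPM of Frzb, and the Alox5ko_TAC library at 306 CPM has 2.68; for Dixdc1 the 3 libraries with the most marker RNA are the 3 lowest.

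Dact1, which binds Dishevelled and can promote its degradation, was 2.74-fold higher with TAC in wild type, the difference for which it was chosen. It stood at 2.27, 1.90 and 1.30 CPM in WT_NS, 5.96, 3.22 and 5.87 in WT_TAC, 2.36, 3.02 and 1.96 in Alox5ko_NS and 2.38, 3.25 and 3.40 in Alox5ko_TAC. The first and the third wild type TAC libraries were high, while the second was at the level of the knockout TAC libraries; the wild type groups did not overlap and the knockout groups did. In the knockout, where the gene was not chosen by its response, the log2 difference with TAC was 0.29 ± 0.255 (SE; 95% interval -0.25 to 0.82, edgeR adjusted p = 0.666). The wild type difference was 1.45 on the log2 scale, and the knockout response minus the wild type response was -1.17, both as descriptions.

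The exons of Dact1 share 1313 of their 3761 bases with 4930474H06Rik, a gene on the opposite strand that was looked at because of this overlap. Its reads numbered 16, 22 and 21 in WT_NS, 65, 37 and 53 in WT_TAC, 28, 36 and 25 in Alox5ko_NS and 29, 29 and 24 in Alox5ko_TAC. The wild type TAC libraries had the most reads. For Dact1 this held for the first and the third of them, while the second had 75 reads, against 81 in Alox5ko_NS 2. Its log2 difference with TAC was 1.43 in wild type, given as a description since the same libraries chose Dact1, and 0.08 in the knockout (edgeR adjusted p = 0.936). The libraries were directional per the labels' protocols, but whether reads were assigned by strand is not given in the sources used here, so reads of Dact1 and of its antisense partner cannot be told apart. Opposite-strand genes also overlap exons of Sfrp2, Wnt5a, Wnt11 and Axin2, with at most 4, 3, 2 and 9 reads in any library.

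Dact3, a related Dishevelled antagonist, showed no such difference. It stood at 8.63, 13.7 and 9.02 CPM in WT_NS, 12.4, 12.1 and 9.21 in WT_TAC, 11.1, 10.5 and 9.30 in Alox5ko_NS and 11.9, 9.87 and 9.04 in Alox5ko_TAC. All 4 groups overlapped. The log2 difference with TAC was 0.10 in wild type (95% interval -0.25 to 0.45, edgeR adjusted p = 0.884) and -0.01 in the knockout (edgeR adjusted p = 0.993). The third member of the family, Dact2, was less abundant. It stood at 0.454, 0.648 and 0.269 CPM in WT_NS, 1.60, 0.729 and 1.36 in WT_TAC, 0.299, 0.448 and 0.400 in Alox5ko_NS and 0.467, 1.92 and 0.383 in Alox5ko_TAC. The wild type groups of Dact2 did not overlap, and in the knockout 1 TAC library stood far above the other 2. Its log2 difference was 1.40 in wild type (edgeR adjusted p = 0.277), 1.26 in the knockout (edgeR adjusted p = 0.307) and 1.33 over both (edgeR adjusted p = 0.0562).

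Dixdc1, a DIX-domain protein that binds Dishevelled and supports canonical signalling, was 2.58-fold lower with TAC in the knockout, the difference for which it was chosen. It stood at 4.95, 3.33 and 6.10 CPM in WT_NS, 2.07, 4.12 and 4.04 in WT_TAC, 4.64, 7.65 and 5.92 in Alox5ko_NS and 2.08, 2.93 and 2.06 in Alox5ko_TAC. The knockout groups did not overlap; in wild type the first TAC library was as low as the knockout TAC libraries and the other 2 lay within the range without TAC. In wild type, where the gene was not chosen by its response, the log2 difference was -0.49 ± 0.277 (SE; 95% interval -1.08 to 0.11, edgeR adjusted p = 0.537). The knockout difference was -1.37 on the log2 scale, and the knockout response minus the wild type response was -0.88, both as descriptions. The 3 libraries with the lowest Dixdc1, the third and the first knockout TAC libraries and the first wild type TAC library, at 2.06, 2.08 and 2.07 CPM, are also those with the highest sums of activated fibroblast markers (306, 253 and 482 CPM); the part of tissue makeup in this value was not tested.

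Axin2 had the smallest p-value of the 7 genes tested in all comparisons, in wild type after TAC. It stood at 1.68, 2.29 and 2.11 CPM in WT_NS, 2.86, 4.46 and 3.29 in WT_TAC, 1.35, 2.16 and 1.82 in Alox5ko_NS and 1.70, 2.47 and 2.25 in Alox5ko_TAC. The 3 wild type TAC libraries were above every other library of the study, and the other 3 groups overlapped one another. The log2 difference with TAC was 0.80 ± 0.224 (SE; 95% interval 0.34 to 1.27, unadjusted p = 0.00193, adjusted p = 0.106 in edgeR) in wild type and 0.26 ± 0.237 (edgeR adjusted p = 0.669) in the knockout. Averaged over the genotypes it was 0.53 ± 0.163 (edgeR adjusted p = 0.0639). Between the genotypes under TAC, Axin2 was 0.73 ± 0.223 lower in the knockout on the log2 scale (log2 fold change -0.73, unadjusted p = 0.00386, adjusted p = 0.317 in edgeR). The difference between the TAC responses was -0.54 ± 0.327 (edgeR adjusted p = 0.962), so the data do not show that the response of Axin2 differed between the genotypes. No set of beta-catenin target genes was examined beside Axin2, and activity of the canonical branch was not tested.

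**Figure D3:**
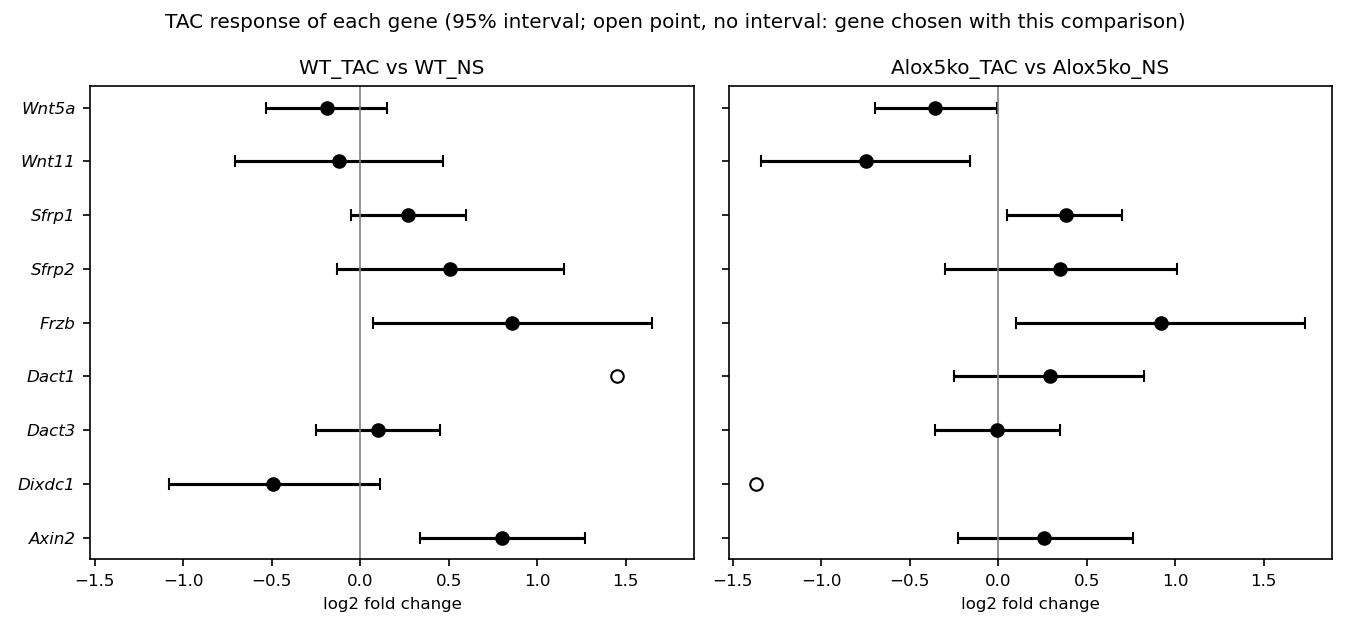
Log2 fold change with TAC (horizontal axes) of each of the 9 genes (vertical axis) in wild type and in the Alox5 knockout; lines are 95% intervals from edgeR, and open points without a line are values that chose the gene. Dact1 in wild type lies at 1.45 and Dixdc1 in the knockout at -1.37, while the interval of Axin2 in wild type runs from 0.34 to 1.27.

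Across the tested genes, 0 of 8 members passed an edgeR adjusted p of 0.05 with TAC in wild type, where 0.766% of 15542 tested genes did, and 0 of 8 in the knockout, where 1.34% did. Unadjusted p-values under 0.05 were found for 2 of 8 members in wild type (Axin2, Frzb), against 11.9% of all genes, and for 4 of 8 in the knockout (Frzb, Sfrp1, Wnt5a, Wnt11), against 14.5%; DESeq2 also called 0 of 8 in each genotype. Sfrp1, Sfrp2, Frzb and Axin2 had positive differences and Wnt5a and Wnt11 negative ones in both genotypes, without a test by role. Listed genes of the same roles also went the other way. Among the ligands this was Wnt9a, given above. Among the inhibitors, Sfrp5 was at 0.40 in wild type and -0.52 in the knockout (edgeR adjusted p = 0.677). Znrf3, a further inhibitor, was at -0.24 and -0.22 (edgeR adjusted p = 0.717 and 0.684). In the destruction complex list 8 of 13 genes were positive in wild type and 9 of 13 in the knockout, while Gsk3b, Csnk1a1, Csnk1e and Tnks2 were negative in both. Sfrp5, Znrf3 and Tnks2 were named after their values were seen. Over the members that a genotype's response did not choose, the median log2 difference with TAC was 0.19 in wild type (8 genes, without Dact1) and 0.27 in the knockout (8 genes, without Dixdc1), against 0 over all tested genes in both. Among these 8, groups that did not overlap were found in wild type for 2 higher members (Frzb, Axin2; 10.1% of all genes) and 0 lower ones (8.81%), and in the knockout for 1 higher (Frzb; 8.98%) and 1 lower member (Wnt5a; 9.02%).

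With the genotypes averaged, 0 of 7 members passed, where 5.10% of all genes did, and 5 of 7 had an unadjusted p under 0.05 (Axin2, Frzb, Sfrp1, Wnt5a and Wnt11; 19.3% of all genes), while DESeq2 called 1, Frzb (DESeq2 adjusted p = 0.0359). Without TAC, 0 of 7 members differed between knockout and wild type, where 0.0386% of genes did and no member had an unadjusted p under 0.05 (6.36% of genes). No member's groups stood apart there (6.14% of genes higher and 7.45% lower without overlap), and the log2 differences ran from -0.31 for Frzb to 0.43 for Dact1. Under TAC all 7 members that can be tested were lower in the knockout, with a median log2 difference of -0.26, while 51.5% of all genes were lower; 0 of 7 passed the threshold (0.109% of genes) and Axin2 was the 1 member with an unadjusted p under 0.05 (8.49% of genes) and with groups that did not overlap (6.51% of genes lower and 5.77% higher without overlap). Dact1 and Dixdc1 were lower too, at -0.74 and -0.54, as descriptions, since this comparison shares their WT_TAC and Alox5ko_TAC libraries with those that chose them. No member differed in its TAC response between the genotypes by the edgeR test (0 of 7, 0% of all genes, and 0 of 7 at an unadjusted p under 0.05 against 5.38% of genes). In these 3 comparisons DESeq2 called 0 of 7 members as well. Marker lists also differed between the genotypes under TAC. Of 10 fibroblast markers 1 was higher in the knockout (median log2 difference -0.29), and of 9 activated fibroblast markers 1 (-0.41). Of 8 smooth muscle and pericyte markers 1 was higher (-0.21), and of 8 endothelial markers 2 (-0.10). All 8 macrophage markers (0.20) and 3 of 8 cardiomyocyte markers (-0.02) were higher. No marker of these lists was called, and their part in the members' values was not tested.

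Of 93 other genes of the pathway outside chromosome 6, listed by role, 64 were tested. With TAC in wild type 1 was called higher (0.476% of all genes) and 1 lower (0.290%), in the knockout 1 higher (0.733%) and 0 lower (0.611%), and averaged over the genotypes 3 higher (2.90%) and 2 lower (2.19%). Their median log2 difference was 0.08 in wild type and 0.06 in the knockout, with 38 and 35 of 64 positive. With 0 to 3 calls in a direction, these counts are too small to set the pathway apart from the background shares.

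Among 12 receptors and co-receptors, Fzd2, a Frizzled receptor of Wnt5a among others, was the 1 that was called. It stood at 3.0, 3.46 and 2.33 CPM in WT_NS, 3.38, 5.79 and 4.51 in WT_TAC, 2.24, 2.72 and 1.96 in Alox5ko_NS and 5.09, 3.75 and 4.31 in Alox5ko_TAC. The knockout groups did not overlap, and in wild type the first TAC library lay just under the highest one without TAC. Fzd2 rose with TAC in the knockout by 0.92 ± 0.212 (SE) on the log2 scale (edgeR adjusted p = 0.0337) and averaged over the genotypes by 0.78 ± 0.148 (edgeR adjusted p = 0.00438), while in wild type its difference was 0.64 (edgeR adjusted p = 0.178). The call in the knockout held in 1 of 6 fits that left out 1 library, the one without the second knockout TAC library, and the call for the average in 12 of 12.

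In the planar polarity branch, Celsr3, an atypical cadherin of this branch, fell with TAC in wild type. It stood at 6.50, 4.71 and 6.73 CPM in WT_NS, 2.49, 3.47 and 3.10 in WT_TAC, 5.46, 4.70 and 5.29 in Alox5ko_NS and 2.84, 3.98 and 1.82 in Alox5ko_TAC. TAC libraries were lower with no overlap in both genotypes. Its log2 difference was -0.98 ± 0.216 (SE; edgeR adjusted p = 0.0396) in wild type, -0.83 in the knockout (edgeR adjusted p = 0.0653) and -0.91 averaged over both (edgeR adjusted p = 0.00217); the wild type call held in 1 of 6 fits with 1 library left out, the one without WT_NS 2, and the averaged call in 12 of 12.

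Prickle1, a cytoplasmic partner in the same branch, rose with TAC in wild type. It stood at 5.14, 4.49 and 6.91 CPM in WT_NS, 7.61, 9.18 and 9.87 in WT_TAC, 7.36, 6.94 and 5.65 in Alox5ko_NS and 5.73, 5.85 and 6.75 in Alox5ko_TAC. The wild type TAC libraries were above all other libraries. The log2 difference was 0.69 ± 0.16 (SE; edgeR adjusted p = 0.0471) in wild type, a call that was lost without WT_NS 1, WT_NS 2, WT_TAC 2 or WT_TAC 3, without robust estimation (edgeR adjusted p = 0.0579) and in a fit of only the compared libraries (0.0556); it was -0.13 in the knockout (edgeR adjusted p = 0.772). Under TAC 4 of the 8 planar polarity genes, Prickle1, Vangl1, Vangl2 and Celsr1 (the last 3 named after their values were seen), were lower in the knockout than in wild type with no overlap and no call (lower without overlap in 6.51% of all genes).

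Of 9 Dishevelled-associated and other cytoplasmic regulators, 2 were called higher with TAC averaged over the genotypes. Nkd2, an inhibitor that binds Dishevelled, stood at 2.64, 2.12 and 1.62 CPM in WT_NS, 4.93, 2.70 and 3.24 in WT_TAC, 1.31, 2.01 and 1.73 in Alox5ko_NS and 2.50, 2.61 and 3.73 in Alox5ko_TAC. It was higher after TAC with no overlap in both genotypes. It rose by 0.78 ± 0.179 (SE) on the log2 scale averaged over both (edgeR adjusted p = 0.0151), a call lost without Alox5ko_TAC 3, and the differences within wild type, 0.77, and within the knockout, 0.80, were not called (edgeR adjusted p = 0.178 and 0.136). Cxxc5, another inhibitor that binds Dishevelled, rose by 0.35 ± 0.0976 (SE) averaged over the genotypes (edgeR adjusted p = 0.0402), a call that held in 4 of 12 fits with 1 library left out. Like Axin2 and Prickle1 it was highest in the WT_TAC libraries, at 9.25, 8.96 and 7.24 CPM against 6.92, 6.03 and 5.98 in Alox5ko_TAC.

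The remaining lists held 1 call. Lgr6, a receptor for R-spondins, fell by 0.41 on the log2 scale averaged over the genotypes (edgeR adjusted p = 0.0341), a call that held in 4 of 12 fits with 1 library left out. None of 6 other secreted or membrane inhibitors was called; Dkk3 was the most uneven, at 22.0 CPM in WT_TAC 1 and 16.8 CPM in Alox5ko_TAC 3, the libraries with the highest activated fibroblast sums of their groups, against 0.970 to 8.65 in the other 10. None of 13 genes of beta-catenin and its destruction complex, 9 nuclear factors and 2 secretion genes was called in any of the 6 comparisons. Of these, Apc2, a relative of the tumour suppressor Apc, was 0.60 higher with TAC in wild type (edgeR adjusted p = 0.15), and Pygo1, a nuclear partner of beta-catenin, had a log2 difference of -0.40 in the knockout (edgeR adjusted p = 0.173). Between the genotypes no pathway gene was called by edgeR or DESeq2, with unadjusted edgeR p-values under 0.05 for 4 of 64 without TAC (6.36% of all genes) and 8 of 64 under TAC (8.49% of all genes). Without TAC 46 of 64 were lower in the knockout (49.6% of all genes) and under TAC 48 of 64 (51.5%), with medians of -0.10 and -0.11 log2 units against 0 and -0.01 over all genes. Several marker lists were lower without TAC too. Of 9 activated fibroblast markers 0 were higher in the knockout (median -0.59), of 8 endothelial markers 1 (-0.26) and of 8 smooth muscle and pericyte markers 2 (-0.33). Of 10 fibroblast markers 3 were higher (-0.08), of 8 macrophage markers 3 (-0.10) and of 8 cardiomyocyte markers 6 (0.05). The part of tissue makeup in these pathway values was not tested.

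**Figure D4:**
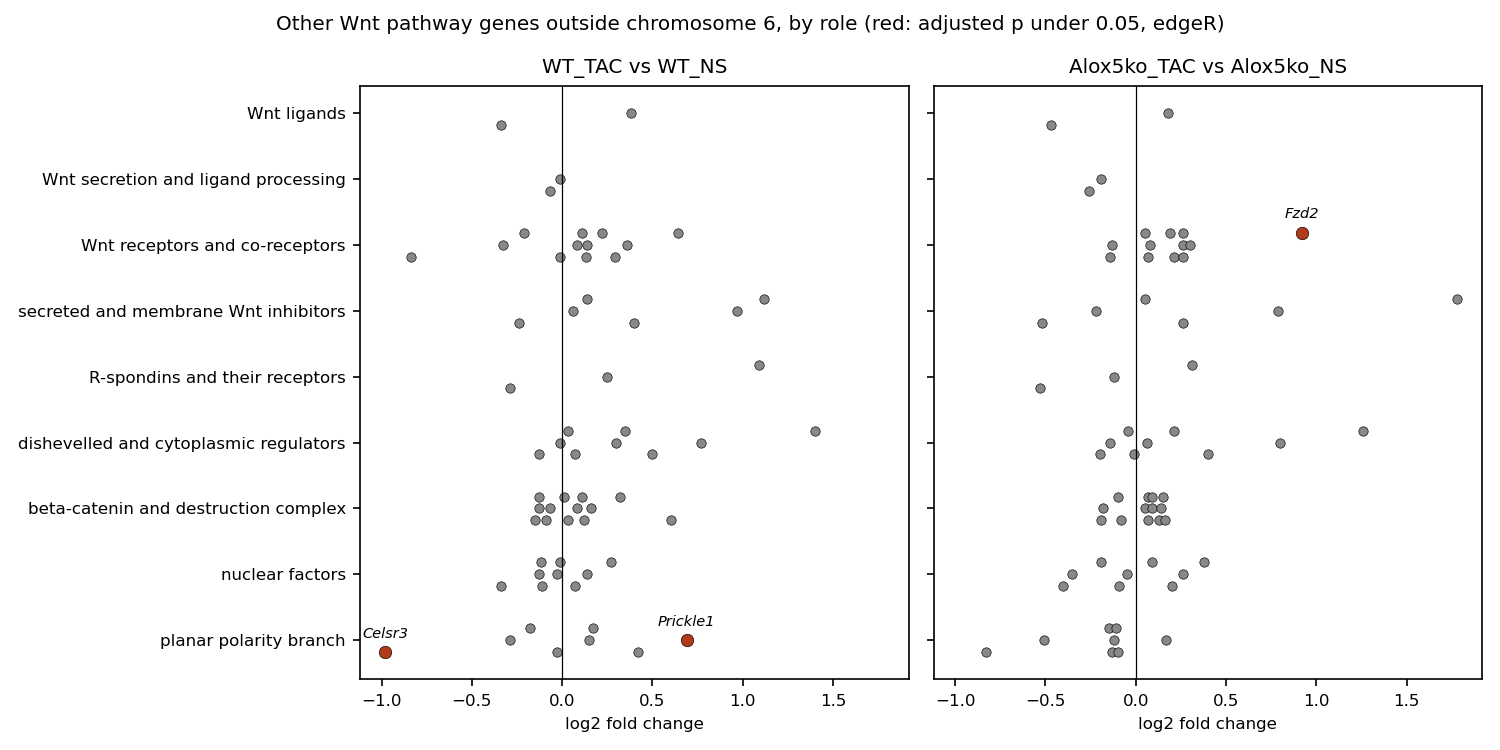
Log2 fold change with TAC (horizontal axes) of the 64 other tested Wnt pathway genes in wild type and in the knockout, grouped by role (vertical axis, with points of a role set apart for legibility); named red points passed an edgeR adjusted p of 0.05. The called genes are Prickle1 at 0.69 and Celsr3 at -0.98 in wild type and Fzd2 at 0.92 in the knockout.

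The genes whose level followed each member most closely over the 12 libraries were ranked by Pearson's r of log2 CPM among tested genes with a mean log2 CPM of at least 1, as a description. Dixdc1 had the closest ones, Nr1d2 (0.95), Tmx4 (0.95) and Osbpl1a (0.94). Frzb was followed by Loxl3 (0.93), Rtn4 (0.93) and Col12a1 (0.91), and Axin2 by Cd200 (0.92), Sox4 (0.91) and Zfp36l1 (0.89). For Dact1 they were Mr1 (0.90), Abca8b (0.89) and Nab2 (0.88), for Sfrp2 Luc7l (0.91), Zfp423 (0.89) and Stx2 (0.88), and for Sfrp1 C1ra (0.88), Ifi203 (0.85) and Il10ra (0.84). Wnt5a was followed by Nf1 (0.90), Lats1 (0.88) and Dpp8 (0.87), Wnt11 by Anks1 (0.88), Bcl9 (0.87) and Gatsl2 (0.85), and Dact3 by Chchd5 (0.90), Hspb3 (0.85) and Ubr7 (0.84). These lists were loose, since ranking by Spearman's rho kept 2 of the 3 genes for Dact1, 0 for Frzb and 1 for each of the other 7 members. Among the members themselves r was highest between Sfrp2 and Frzb (0.79), Dact1 and Sfrp2 (0.72), and Sfrp1 and Sfrp2 (0.69), and lowest between Dixdc1 and Frzb (-0.70). All these values are over 12 libraries that share depth, group and tissue makeup.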

How the data were processed

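Polyadenylated RNA of mouse left ventricle was sequenced as directional libraries, per the labels' protocols, and 12 libraries in 4 groups of 3 were used. The authors deposited raw read counts per gene, and RPKM values for 28070 genes; HISAT2, DESeq2, mm10 and GRCh38 are named in the submitters' processing notes, with versions and counting settings not given in the sources used here. All deposited RPKM values (100%) equalled values recomputed from counts, gene length and library total within 1%. Among the gene symbols, 26 had been turned into dates. Genes were matched by symbol, and all 9 members were found.

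Counts were tested with edgeR 4.0.16 (limma 3.58.1, R 4.3.3): filterByExpr (minimum count 10, minimum total 15) left 15542 genes, TMM scaled the libraries, and glmQLFit with robust estimation and glmQLFTest were fitted to all 12 libraries with 1 coefficient per group, with Benjamini-Hochberg adjustment over all tested genes at 0.05. Intervals are at 95% and cover the spread between libraries. CPM of single genes use the TMM-scaled totals, and log2 CPM a prior count of 2. Summed CPM of marker lists use the plain library totals, without the TMM factors of 0.9454 to 1.035. On data simulated for WT_TAC against WT_NS with 15354 genes, 68% of genes changed 2-fold and 94% of those changed 4-fold were recovered, and 11 unchanged genes were called. The changed genes were drawn at random from all tested genes, so these shares do not give the recovery of the less abundant members. DESeq2 1.42.0, another scaling, no filter, fits of only the compared libraries, no robust estimation, a replicate block and each library left out were tried as alternatives. No 2 libraries of a group were copies of each other.

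The 9 genes, the pathway lists and the marker lists were chosen with earlier results of these data known. The named genes were the 9 members in every comparison, every pathway gene outside chromosome 6 called in a comparison, up to 2 genes with the smallest p of each list without a call, and for each member the 3 genes with the highest Pearson r among genes with a mean log2 CPM of at least 1. Pathway genes on chromosome 6, 7 in number, were left out.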

Additional observations from a re-analysis of the deposited data

How the results depend on the processing

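Of 738 recomputed fold changes of the 9 genes, 698 kept their direction and their side of the threshold, 11 passed only under the alternative and 29 changed sign; those 29 came from fits with 1 library left out, and none was called. Dact1 in wild type stayed at 1.26 to 1.69 and Dixdc1 in the knockout at -1.55 to -1.16 with 1 library left out. Leave-one-out log2 ranges that crossed 0 were, for Dact3, -0.02 to 0.35 (TAC in wild type), -0.13 to 0.08 (TAC in the knockout), -0.01 to 0.17 (average), -0.14 to 0.23 (genotype without TAC) and -0.35 to 0.01 (difference of responses). For Frzb they were -0.94 to 0.04 (genotype under TAC) and -0.63 to 0.35 (difference of responses), and for Sfrp1 -0.21 to 0.09 and -0.04 to 0.26 in the same comparisons. For Sfrp2 they were -0.42 to 0.17 (genotype without TAC) and -0.51 to 0.09 (difference of responses), for Wnt11 -0.26 to 0.07 (TAC in wild type) and for Wnt5a -0.24 to 0.01 (genotype without TAC). Averaged over the genotypes, 0 members were called, against 1 by DESeq2 (Frzb, adjusted p = 0.0359), 3 without the filter (Axin2, Frzb and Sfrp1, edgeR adjusted p = 0.0258, 0.00186 and 0.0125), 1 with the replicate block (Axin2, edgeR adjusted p = 0.023) and 0 to 1 with 1 library left out (1 each without WT_TAC 3, Alox5ko_NS 2, Alox5ko_TAC 1 or Alox5ko_TAC 2). With TAC in wild type, Axin2 was called without the filter (edgeR adjusted p = 0.0181) and with the replicate block (0.0497), 1 member each. The cause of these changes was not tested. Over all tested genes no pairing by replicate number was seen: 0 of 18 same-numbered pairs had a correlation of deviations over 0.1, with r of -0.12 to 0.09 against -0.14 to 0.10 for other numbers. Such a check cannot show a pairing limited to part of the genes. Of the other pathway genes, 2 were called with TAC in wild type, against 6 without the filter, 0 with the replicate block (Celsr3 and Prickle1 at edgeR adjusted p = 0.0635 and 0.0548), 1 without robust estimation, 1 from only the compared libraries and 0 to 1 with 1 library left out. In the knockout 1 was called, against 2 by DESeq2, 5 without the filter and 0 to 2 with 1 left out, and for the average 5, against 8 without the filter and 3 to 5 with 1 left out. Without the filter 1 was called for the genotype under TAC and 1 for the difference of responses, against 0 in each. Over all genes, calls with TAC in wild type went from 119 to 281 by DESeq2, 538 without the filter, 215 from only the compared libraries and 17 to 95 with 1 left out. In the knockout 209 became 373, 756 and, with 1 left out, 60 to 379, and for the average 792 became 1331 without the filter and 407 to 990. For the genotype without TAC 6 became 24 by DESeq2, 116 without the filter, 3 without robust estimation, 18 from only the compared libraries and 2 to 7, under TAC 17 became 59, 252, 39 from only the compared libraries and 10 to 27, and for the difference of responses 0 became 1, 83 and 0 to 1. With 15 to 317 reads per gene and library, differences of the less abundant members such as Frzb, Sfrp2 and Wnt11 carry wide errors, and 1 library could move them.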
